A study of Mus musculus with 12 samples.

Results

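This account follows 47 DNA repair genes through maps of H3K27ac-centred chromatin contacts in hepatocytes, the main parenchymal cells of the liver, from young and old mice. The 47 members were named from the main repair pathways, out of 21631 protein-coding genes; the rule uses no measured value, but earlier results of these data were known when the list was made. H3K27ac Hi-ChIP captures contacts between DNA segments whose nucleosomes carry acetylation of lysine 27 on histone H3, which is typical of active regulatory DNA. The 12 libraries came from livers of male C57BL/6 mice, 6 from young animals aged 5 months and 6 from old animals aged 25 months, and each age had 2 biological replicates with 3 batches of technical repeats. The labels name no transgene and no drug, and the groups differ also in source, since the young mice were bought from Charles River Laboratories and the old mice came from National Institute on Aging stock. Hepatocytes were obtained by collagenase perfusion and pelleted at low speed. The listing of marker genes, given below, does not measure their purity.

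Cells repair DNA by several routes that act on different lesions. In base excision repair a glycosylase removes an oxidised, deaminated or alkylated base, after which an endonuclease, a polymerase and a ligase restore the strand. Nucleotide excision repair cuts out a short stretch around bulky lesions, and mismatch repair corrects errors of replication. Breaks of both strands are rejoined directly by end joining or copied from a sister chromatid by homologous recombination, the latter mainly in dividing cells, and checkpoint kinases signal such damage. Hepatocytes divide rarely in the adult and are exposed to oxidants from their own metabolism.

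The deposited tables held 1 network per age, made of 5 kb bins called nodes that are grouped into sets which the depositors name cliques. The young network had 56928 nodes in 5401 cliques and the old 40304 nodes in 5973, with a mean of 10.5 and 6.75 nodes per clique. Old sizes were therefore read beside those of all protein-coding genes. For each member the value is the node number of the largest clique whose deposited gene column names it, and 0 where none does. With 1 network per age there is no spread between animals, no test and no p-value, and read depth behind either network is unknown. Of 10 hepatocyte marker genes 9 appeared in the young network and 8 in the old (396 and 221 nodes in sum, Serpina1a in neither and Hnf4a in young alone), while 8 Kupffer cell markers were in no clique at either age. Of 8 endothelial markers the young network named 3 and the old 1 (39 and 3 nodes in sum), with Lyve1 at 25 and 3 nodes, Fcgr2b at 10 and 0, Pecam1 at 4 and 0, and Stab2, Kdr, Clec4g, Cdh5 and Tek at 0. The young network listed 1 of 7 stellate markers (Reln, 2 nodes), 1 of 6 cholangiocyte markers (Spp1, 11 nodes) and 1 of 7 lymphocyte markers (Nkg7, 8 nodes), and the old network only Nkg7 (7 nodes). The part of such cells in the results below was not tested.

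DNA repair genes were listed more often than protein-coding genes in general. In the young network 29 of the 47 were listed, 61.7% against 40.2% of all protein-coding genes, and in the old network 26 were, 55.3% against 33.1%. There were 33 members listed at either age, of which 22 had a clique at both, 7 had one only in young and 4 only in old. The young-only share, 21.2% of the 33, lay beside 25.4% of all genes listed at either age, and the old-only share, 12.1%, beside 9.44%. The value was smaller in old for 26 of the 33 members (78.8%, beside 78.5% of all listed genes) and larger for 6 (18.2%, beside 17.9%), with Mgmt equal. Of the 22 members listed at both ages 10 were at least 2-fold smaller in old, taken as a log2((old + 1)/(young + 1)) of -1 or below, which is 45.5% beside 35.7% of all such genes, and 1 was at least 2-fold larger, 4.55% beside 3.77%. The median log2 value was -1.05 over the 33 members and -0.58 over the 22, against -0.93 and -0.63 for all genes. The share of members listed was above that of all genes at both ages, and the share with a smaller old value was close to it.

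Each size was also divided by the mean clique of its age, a scale on which most listed genes were still smaller in old. There 18 members were smaller in old and 15 larger, 45.5% larger beside 41.4% of all listed genes. Ranked as percentiles among the 9596 genes listed at either age, 16 of the 33 members stood higher in old (48.5%, beside 55.9%) and 17 lower.

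**Figure D1:**
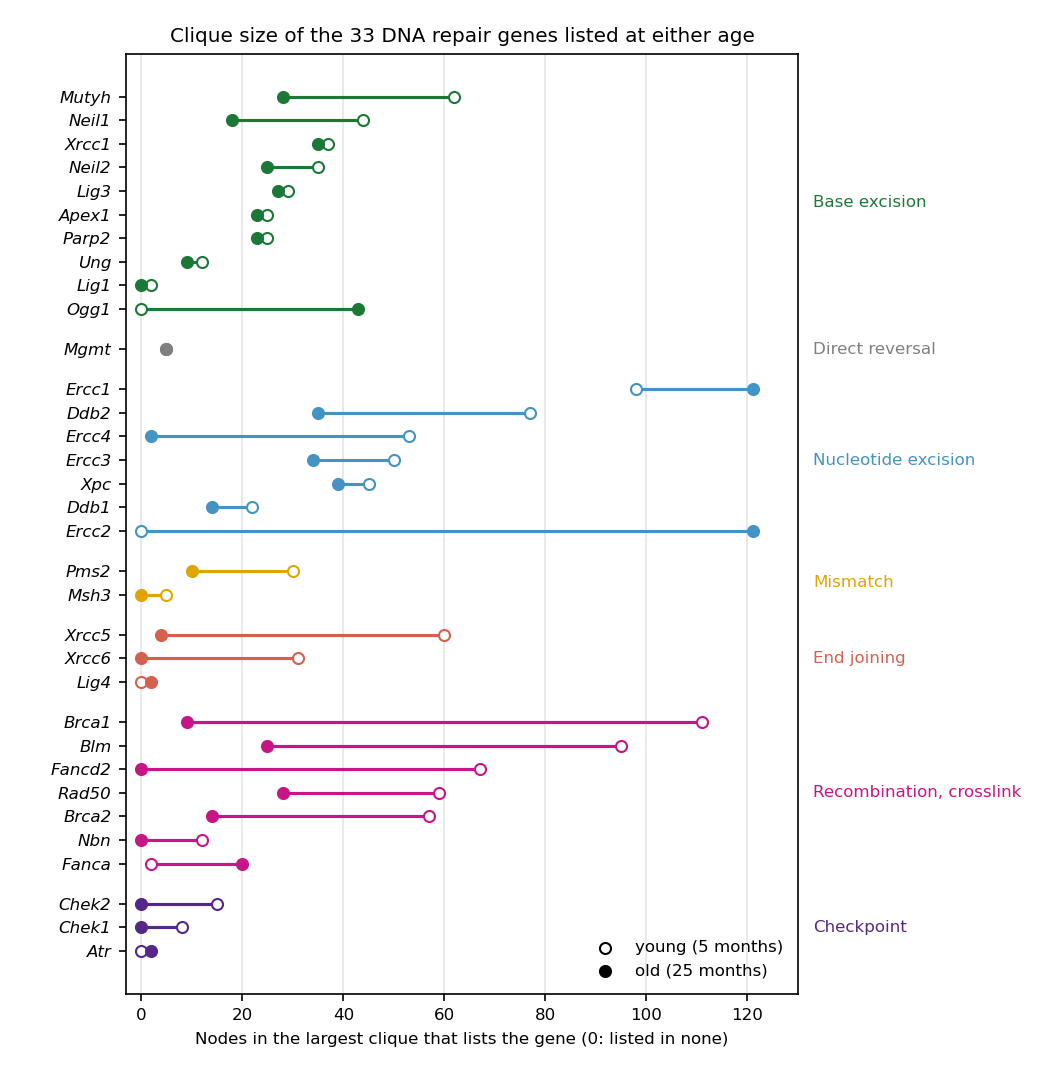
Number of nodes (horizontal axis) in the largest clique that lists each of the 33 repair genes listed at either age, with open circles for young, filled circles for old and colours for the repair pathway; there is 1 value per gene and age and no error bar. Xrcc1 (37 and 35 nodes) and Lig3 (29 and 27) have young and old values close together, while Brca1 (111 and 9 nodes), Blm (95 and 25) and Xrcc5 (60 and 4) are far apart.

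In base excision repair 10 of 13 members were listed, 8 of them at both ages, and for 6 of these the sizes differed by less than 2-fold. Of all genes listed at both ages 35.7% were at least 2-fold smaller in old and 3.77% at least 2-fold larger. Most genes in general thus also differed by less. Xrcc1, the scaffold that gathers the enzymes of single-strand break repair (chromosome 7, 24546699 to 24573438), had 37 nodes in young and 35 in old. Lig3, the ligase that works with it (chromosome 11, 82781109 to 82804274), was at 29 and 27 nodes. Apex1, the endonuclease that cuts at abasic sites, and Parp2, which senses strand breaks, are listed by the same cliques on chromosome 14, so their values of 25 and 23 nodes are 1 measurement. Relative to the mean clique of each age these 4 genes were larger in old, with Xrcc1 at 3.51 times the mean in young and 5.19 times in old.

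The DNA glycosylases, which find the damaged base, varied more. Mutyh, which removes adenine paired with oxidised guanine (chromosome 4, 116807636 to 116819439), was in cliques of 62 and 28 nodes, a 2.21-fold difference. Neil1, a glycosylase for oxidised bases, was at 44 and 18 nodes, 2.44-fold. Its relative Neil2 was at 35 and 25, and the uracil glycosylase Ung was at 12 and 9. Neil3, another of that family, was in no clique, and its start lay 890936 bp from the nearest young node and 435936 bp from the nearest old one. Polb, the gap-filling polymerase, and Parp1, the main strand break sensor, were unlisted at both ages. By gene span Polb was nevertheless in cliques of 45 and 36 nodes, and Parp1 was in one of 12 nodes in young and in none in old. Lig1, the ligase of replication, had 2 nodes in young and was absent from the old cliques.

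Ogg1, the glycosylase for oxidised guanine itself (chromosome 6, 113326972 to 113334877), was absent from the young cliques and was listed in an old clique of 43 nodes. The same stretch of chromosome 6 holds Fancd2, a central protein of crosslink repair (113531640 to 113597020), with the opposite pattern of 67 nodes in young and none in old. Both values come from 1 neighbourhood. Of the 67 nodes of the young clique that lists Fancd2, 41 were present in old (61.2%, 95% Wilson interval 49.2 to 72.0), and 35 of these were in the old clique that lists Ogg1. The start of Ogg1 was 8025 bp from the nearest young node and inside an old node. By gene span, the largest clique with a node in the gene or within 2500 bp of it, Ogg1 was at 67 nodes in young and 43 in old, so the order of the ages for Ogg1 turns with the way the gene is assigned. Fancd2 had 2 nodes in its span in young and 0 in old. Such intervals cover counting error alone and treat neighbouring nodes as independent.

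The largest old clique of the set, with 121 nodes, lists a pair of nucleotide excision repair genes. Ercc1, the partner subunit of the nuclease that makes an incision beside the lesion (chromosome 7, 19344067 to 19356524), had 98 nodes in young and 121 in old, or 9.30 and 17.9 times the mean of the age. Ercc2, a helicase of the repair and transcription factor TFIIH whose gene lies close by (19382017 to 19395694), was listed in that old clique of 121 nodes but not in young. No young node lay in or within 2500 bp of Ercc2, and its start was 17017 bp from the nearest one. Of the 98 young nodes 83 were found in the old clique of 121 (84.7%, 76.3 to 90.5), and none in another old clique. The remaining old nodes included 12 that belonged to young cliques of 12 and 4 nodes.

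The other 5 listed genes of the pathway had smaller old cliques, as did 78.5% of all listed genes, and 3 of the 5 by less than 2-fold. Xpc, the sensor of distorted DNA (chromosome 6), was at 45 and 39 nodes, and Ercc3, the other TFIIH helicase, at 50 and 34. Ddb1, an adaptor of the ubiquitin ligase that marks ultraviolet lesions, was at 22 and 14, whereas its partner Ddb2 (chromosome 2, 91211545 to 91237132) was at 77 and 35. Ercc4, the catalytic partner of Ercc1 (chromosome 16, 13109366 to 13152009), was at 53 and 2 nodes, or 26.5-fold. Of the 53 young nodes 31 were present in old (58.5%, 45.1 to 70.7, beside 65.4% over all young cliques of 30 or more nodes), and 29 of them lay in an old clique of 32 nodes that does not list Ercc4. By gene span Ercc4 was at 53 and 32 nodes. Ercc6, which serves transcription-coupled repair, Xpa and the nuclease gene Ercc5 were unlisted at both ages, although the start of Ercc6 was only 1480 bp from a node in each network.

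In mismatch repair Pms2, an endonuclease subunit (chromosome 5, 143909901 to 143972745), was in cliques of 30 and 10 nodes. Msh3, a mismatch recognition subunit (chromosome 13, 92211878 to 92355004), had 5 nodes in young, none of which was present in old, and was unlisted there. Msh6, another recognition subunit, was unlisted at both ages. Mgmt, which directly removes alkyl groups from guanine, was in cliques of 5 nodes at both ages, with 2 nodes in common.

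Of the 10 listed genes for repair of double-strand breaks 8 had the smaller value in old, beside 78.5% of all listed genes, so the direction was that of the networks in general and the sizes are given one by one. In end joining Xrcc5, the larger subunit of the Ku ring that binds broken ends (chromosome 1, 72307417 to 72394953), was at 60 and 4 nodes, or 15-fold. Of its 60 young nodes 44 were present in old (73.3%, 61.0 to 82.9), of which 41 lay in an old clique of 50 nodes that does not list Xrcc5. The node at the start of Xrcc5 was in both networks, and in old it belonged to the clique of 4. Xrcc6, the other Ku subunit (chromosome 15, 81987833 to 82040085), had 31 nodes in young and was unlisted in old. Of those 31 nodes 24 were in an old clique of 27, but the nearest old node was 86369 bp from the start of Xrcc6, against 1369 bp in young. Lig4, the ligase of end joining, was listed in old only, in a clique of 2 nodes. Its partner Xrcc4, the kinase gene Prkdc and Trp53bp1, which shields broken ends, were unlisted and had no node in their gene spans at either age.

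In homologous recombination and crosslink repair 6 of the 7 listed members were smaller in old, again beside 78.5% of all listed genes. Brca1, which directs broken ends to recombination (chromosome 11, 101488761 to 101551955), had 111 nodes in young and 9 in old, or 12.3-fold, and went from percentile 96.3 of listed genes to 54.6. Brca2, which loads the recombinase (chromosome 5, 150522297 to 150570147), was at 57 and 14 nodes. Blm, a helicase that dissolves recombination intermediates (chromosome 7, 80454993 to 80535148), was at 95 and 25. Rad50, a subunit of the complex that first binds the break, was at 59 and 28, and its partner Nbn had 12 nodes in young and was unlisted in old, where the gene span gave a clique of 2. Mre11a, the nuclease of that complex, was unlisted, as were Rad52 and the helicase gene Wrn. Fanca, a core subunit of the crosslink repair complex (chromosome 8, 123266294 to 123318651), had the opposite order, with 2 nodes in young and 20 in old. It was the 1 member at least 2-fold larger in old among those listed at both ages, and by gene span its values were 12 and 20.

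Checkpoint kinase genes were in cliques of at most 15 nodes or in none. Chek1 had 8 nodes and Chek2 had 15 in young, and both were unlisted in old. None of the 8 nodes of the Chek1 clique was present in old, whereas 9 of the 15 of the Chek2 clique lay in 1 old clique of 10. Atr, the kinase that responds to stalled replication, was listed in old only, with 2 nodes. Atm, the kinase that responds to breaks, was unlisted, although the bin at its start was a node of a young clique of 3 nodes and of an old clique of 4.

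Excision repair and double-strand break repair differed in their values. Of 17 listed members of base and nucleotide excision repair, 14 were smaller in old and 3 larger, with a median log2 value of -0.38. Of 10 listed members of end joining, recombination and crosslink repair, 8 were smaller and 2 larger, with a median of -2.72. Relative to the mean clique the excision median turned to 0.13, with 11 of the 17 genes larger in old, and the double-strand break median was -1.09, with 2 of the 10 larger. By gene span the medians were -0.42 over 22 genes and -2.12 over 11. Over members listed at both ages they were -0.42 for 14 excision genes and -1.92 for 6 double-strand break genes. With a pseudocount of 5 they were -0.28 and -1.75. By listing, the 1 neighbourhood of Ogg1 and Fancd2 enters both groups with opposite signs, at log2 values of 5.46 and -6.09. Young cliques were also larger for the double-strand break genes, at a median of 59.5 nodes against 40.5 among members listed at both ages. The comparison was therefore repeated on genes with a young clique of 30 or more nodes, a restriction added after the values were seen. All 7 such double-strand break genes and 4 of 9 such excision genes had a log2 value of -1 or below, beside 53.1% of all genes with a young clique of that size. The difference between the pathways was not tested, since each age is 1 network.

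**Figure D2:**
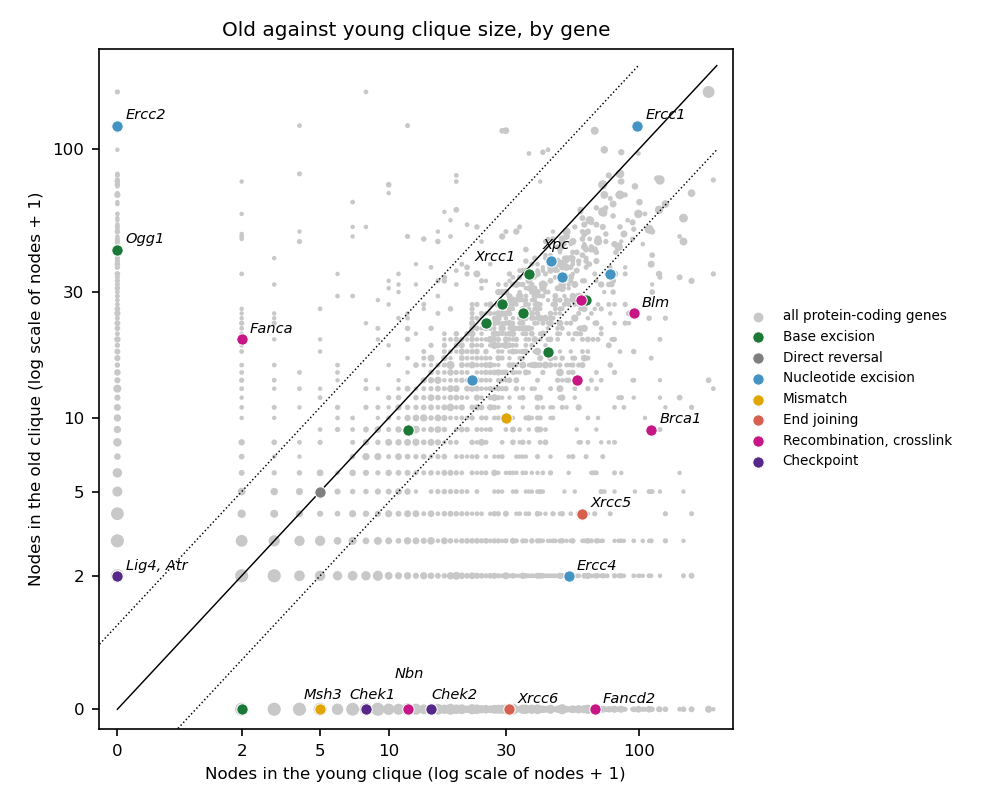
Clique size in old (vertical axis) against young (horizontal axis), both on a log scale of nodes + 1, for repair genes in colour and all listed protein-coding genes in grey, with larger grey points where more genes share a position; the solid line marks equal size and the dotted lines a log2 value of -1 and 1. Xrcc1 (37 and 35 nodes) and Xpc (45 and 39) lie near the line of equal size, and Brca1 (111 and 9) and Xrcc5 (60 and 4) lie below the lower dotted line.

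A fixed list of 75 other repair genes did not show the same separation. Of these, 45 were listed at either age, 44 in young and 32 in old, beside 40.2% and 33.1% of all protein-coding genes. Of the 45, 39 were smaller in old, 3 larger and 3 equal, beside 78.5% smaller and 17.9% larger of all listed genes. Their median log2 value was -0.98, beside -0.93. The other base excision genes had a median of -1.58 over 7 listed genes and the other nucleotide excision genes -0.30 over 10. For the other double-strand break and crosslink genes it was -0.92 over 15, for those of mismatch repair -2.58 over 5 and for checkpoint genes -1.03 over 8. The genes named next were picked for large log2 values in either direction within each list. All of them were smaller or unlisted in old. Nthl1, a glycosylase for oxidised pyrimidines, was at 109 and 2 nodes, and the glycosylase gene Mbd4 had 27 nodes in young and was unlisted in old. Among nucleotide excision genes Rad23b, a partner of Xpc, had 5 nodes in young and was unlisted in old, and Uvssa was at 13 and 2. In double-strand break repair Dclre1c, an end-processing nuclease, had 54 nodes in young and was unlisted in old, and Xrcc3 was at 32 and 2. The replication clamp gene Pcna and the single-strand binding protein gene Rpa1, used by several pathways, had 53 and 71 nodes in young and were unlisted in old. Rad9a, a subunit of the checkpoint clamp, was at 126 and 11. The young network held 8 of 12 proliferation genes and the old 6 (162 and 107 nodes in sum), and their part in the values of the repair genes was not tested.

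The nodes of the members' young cliques were often divided among several old cliques, as were those of most young cliques of 30 or more nodes. The 29 members listed in young belonged to 28 cliques with 1148 nodes, of which 784 (68.3%) were present in old, beside 55.6% of all young nodes. Among the 17 of these cliques with 30 or more nodes, 69.3% of nodes were present and 14 cliques had nodes in 2 or more old cliques, beside 65.4% and 72.3% of all young cliques of that size (82.4% for the members). The clique of Blm had its retained 64 nodes in 11 old cliques, that of Brca1 its 73 in 9 and that of Neil1 its 30 in 7. The retained nodes of the cliques of Ercc1, Xpc, Xrcc6 and Lig3 were each in 1 old clique. The Jaccard index, the nodes in common divided by the nodes in either clique, was 0.826 for Xpc with its best old match, 0.806 for Lig3 and 0.8 for Xrcc1, and it was 0.25 for Blm and 0.296 for Brca1. For cliques of 30 or more nodes the median index was 0.538 over the 9 of excision genes and 0.426 over the 7 of double-strand break genes, and it was 0.5 over all 540 such cliques with a coding gene.

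**Figure D3:**
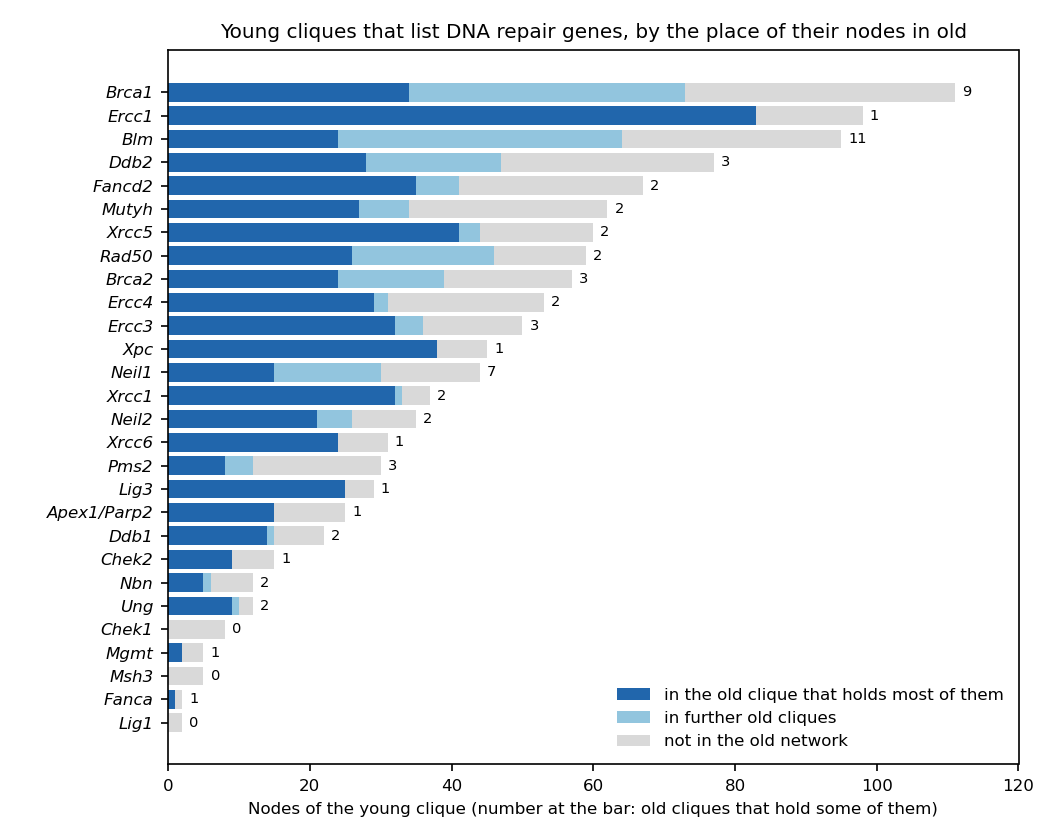
For each of the 28 young cliques that list repair genes, the number of its nodes (horizontal axis) that lay in the old clique holding most of them (dark blue), in further old cliques (light blue) or nowhere in the old network (grey), with the number of old cliques at the end of the bar. The 98 nodes of the Ercc1 clique lay in 1 old clique or in none, while those of the Brca1 and Blm cliques lay in 9 and 11.

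The layout of the nodes was drawn for 4 loci, with node centres placed by their distance from the start and negative values toward lower coordinates. Around Brca1 the young clique ran from -109 to 901 kb, and the old clique that lists the gene ran from -89.5 kb to the start, while 73 other nodes of that window belonged to other old cliques. At Xrcc5 the young clique began at -725 kb and the old one at -54.9 kb, and both ended at the start. The old clique of Ercc1 began at -448 kb and the young one at -213 kb, with their far ends at 622 and 617 kb. The young clique around Ogg1, which lists Fancd2, ran from -289 to 416 kb, and the old clique that lists Ogg1 ran from the start to 391 kb.

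**Figure D4:**
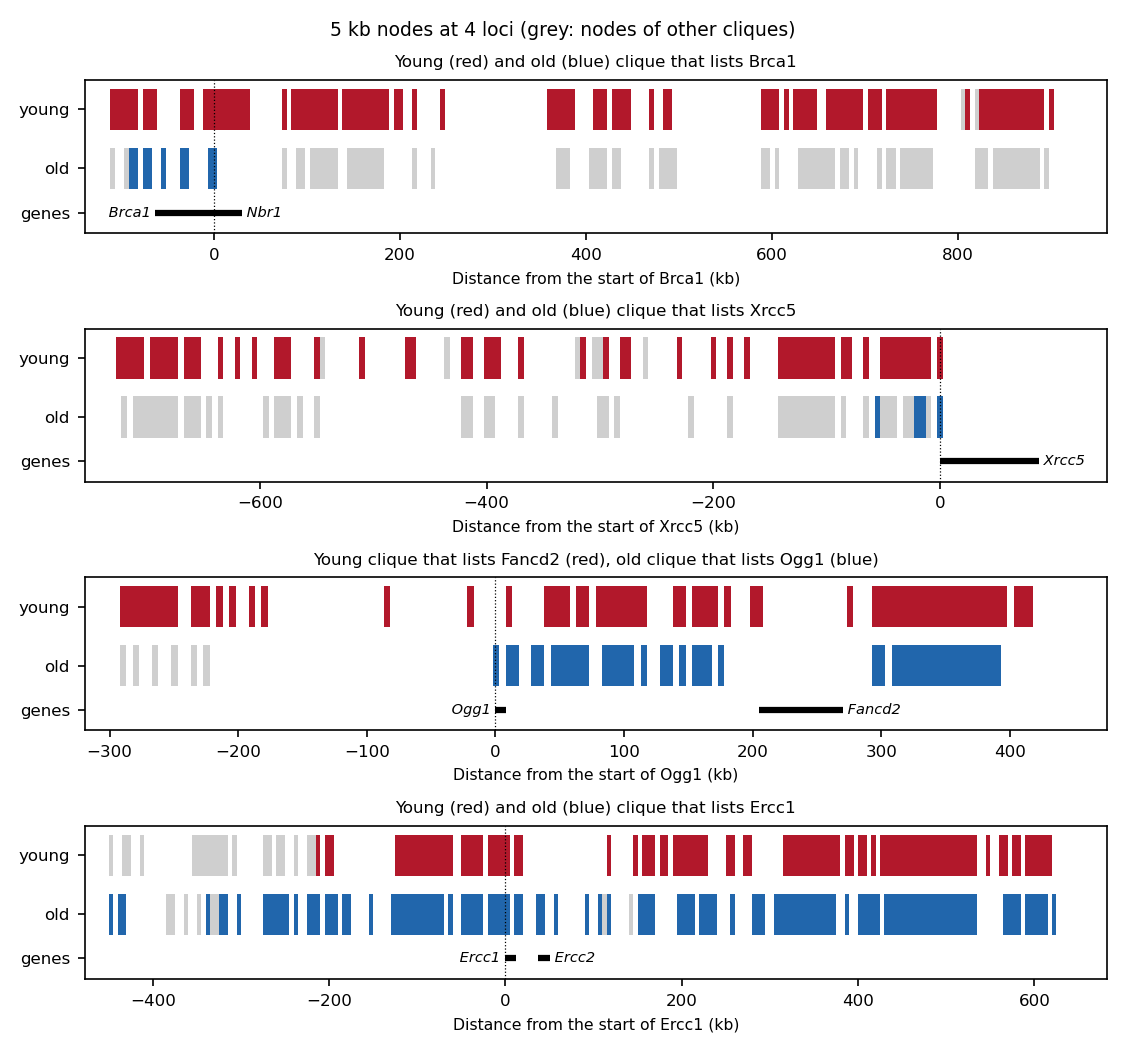
Nodes of 5 kb (boxes) along the distance in kb from the start of Brca1, Xrcc5, Ogg1 and Ercc1, with the clique of the named gene in red (young, for Ogg1 the clique that lists Fancd2) or blue (old), nodes of other cliques in grey and gene spans in black. At Brca1 and Xrcc5 most old nodes of the window are grey, 73 of 82 and 49 of 53, and at Ercc1 8 of 129 are.

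The bin at the transcription start, a measure from the node tables rather than the gene column, was examined for the 37 members with a start in the RefSeq promoter table of GRCm38.p6. That bin was a node for 19 of them in young (51.4%, beside 40.8% of 17274 genes) and for 21 in old (56.8%, beside 33.0%). It was a node at both ages for 16, in old only for 5 (13.5%, beside 4.09% of all genes) and in young only for 3 (8.11%, beside 11.9%). The 5 were Ogg1, Apex1, Ercc2, Lig4 and Atr, and the 3 were Lig1, Msh3 and Chek1. The start bin largely follows the listing. Over all genes with a start it was a node for 94.9% of listed genes in young and 92.7% in old. Among unlisted genes it was a node for 3.97% and 3.48%. The start-bin shares of the members are therefore not evidence apart from their listing. The start of Apex1 was only 52 bp from a node of its own young clique of 25 nodes. The old cliques of Lig4 and Atr had 2 nodes each, and the young cliques of Lig1, Msh3 and Chek1 had 2, 5 and 8. Brca1, Brca2, Blm and Xrcc5 kept the node at their start while the clique around it was smaller. Over all 47 gene spans there were 129 young and 97 old nodes, a ratio of 0.752 beside 0.743 for all protein-coding genes. The promoter table has no entry for Neil2, Polb, Xpc, Ddb2, Ercc3, Prkdc, Rad50, Nbn, Wrn and Fancd2.

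Promoter sequences are shown for 5 members that mark these patterns. Brca1 and Xrcc5 kept a node at the start within a far smaller clique, Ogg1 and Ercc2 had a node at the start in old only, and Msh3 carries words of the E2F motif, which is bound by cell cycle transcription factors. Each is the 250 bases before the start, 5′ to 3′ on the strand of the gene, from RefSeq on GRCm38.p6, with matches to any motif of the next paragraph, on either strand, in capitals. The regions are chr11:101551956-101552205 (minus strand) for Brca1, chr1:72307171-72307420 (plus) for Xrcc5, chr6:113326726-113326975 (plus) for Ogg1, chr7:19381767-19382016 (plus) for Ercc2 and chr13:92355004-92355253 (minus) for Msh3.
Brca1: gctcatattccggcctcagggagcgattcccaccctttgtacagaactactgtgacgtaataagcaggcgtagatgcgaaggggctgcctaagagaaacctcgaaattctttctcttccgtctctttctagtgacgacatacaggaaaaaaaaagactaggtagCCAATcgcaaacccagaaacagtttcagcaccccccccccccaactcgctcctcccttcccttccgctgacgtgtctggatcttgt
Xrcc5: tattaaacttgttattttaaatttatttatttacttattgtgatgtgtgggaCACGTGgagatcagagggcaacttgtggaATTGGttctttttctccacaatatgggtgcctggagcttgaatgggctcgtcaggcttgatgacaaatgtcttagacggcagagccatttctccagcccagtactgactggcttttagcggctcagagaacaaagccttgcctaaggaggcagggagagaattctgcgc
Ogg1: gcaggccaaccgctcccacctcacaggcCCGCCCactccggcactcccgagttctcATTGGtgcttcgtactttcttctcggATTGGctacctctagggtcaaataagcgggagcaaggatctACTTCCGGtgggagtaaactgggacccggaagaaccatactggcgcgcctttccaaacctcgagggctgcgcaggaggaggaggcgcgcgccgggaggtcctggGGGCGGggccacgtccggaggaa
Ercc2: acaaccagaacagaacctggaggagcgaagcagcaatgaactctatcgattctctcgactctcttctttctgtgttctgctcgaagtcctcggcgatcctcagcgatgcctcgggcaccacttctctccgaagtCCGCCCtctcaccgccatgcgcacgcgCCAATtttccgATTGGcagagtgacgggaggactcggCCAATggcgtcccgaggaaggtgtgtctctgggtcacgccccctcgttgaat
Msh3: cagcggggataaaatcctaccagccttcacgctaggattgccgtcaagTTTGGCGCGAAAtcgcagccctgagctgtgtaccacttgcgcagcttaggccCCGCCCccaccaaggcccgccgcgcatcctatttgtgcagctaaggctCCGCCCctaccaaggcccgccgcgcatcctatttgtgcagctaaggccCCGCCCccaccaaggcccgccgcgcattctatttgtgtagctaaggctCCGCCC

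The motifs were searched on both strands from 250 bases before the start to 50 after it. They were CCAAT (bound by NF-Y), GGGCGG (the GC box), CACGTG (the E-box), CCGGAAGT (ETS factors) and, for E2F, any of TTTGGCGC, TTTCCCGC, TTTCGCGC and TTTGCCGC, which can overlap each other. An E2F word was in 5 of 37 member promoters (13.5%), beside 2.95% of the 17274 promoters. These were Msh3, Msh6, Xrcc6, Brca2 and Chek2, of which Msh6 was in no clique and the other 4 were smaller in old or listed in young only. That direction, with genes listed in young only included, was also the one of 78.5% of all listed genes and of 26 of the 33 listed members. A link between the motif and clique size was not tested. GGGCGG was in 25 (67.6%, beside 46.9%), CACGTG in 7 (18.9%, beside 7.99%), CCAAT in 18 (48.6%, beside 39.4%) and CCGGAAGT in 3 (8.11%, beside 5.35%). The median GC share was 58.7% over the members and 56.3% over all promoters. A match describes the letters and not a bound site.

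Several repair genes start beside a neighbour on the other strand. Of the 37 members with a start, 12 had another coding start within 1000 bp, all on the opposite strand. The share over all genes was not counted, so this is not given as a trait of repair genes. In 11 of the 12 both starts were in the same bin, the exception being Pms2 and Aimp2. Brca1 and Nbr1, an autophagy receptor gene 152 bp away, were listed together at both ages, at 111 and 9 nodes, as were Mutyh with Toe1, Apex1 with Osgep, Xrcc1 with Pinlyp and Pms2 with Aimp2. A node or clique at these starts cannot be attributed to 1 gene of the pair. Npat, 376 bp from Atm, was listed in the cliques of 3 and 4 nodes that hold the start of Atm, and Atm was not. Xrcc6 was listed in young without its neighbour Desi1.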

How the data were processed

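H3K27ac Hi-ChIP libraries of hepatocytes were compared through 4 deposited tables. Per the file headers these give, for each age, the positions of the nodes and the cliques with their node numbers, genes and node names; no replicate or batch is named, so each network was treated as a pool of the 6 libraries. The submitters' processing notes name Bowtie2 and HiC-Pro with the builds mm10 and GRCm38; their versions, the loop caller, the method that formed cliques and the window that ties genes to nodes were steps not given in the sources used here. Gene positions and starts are RefSeq's on GRCm38.p6, 1-based.

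Each gene took the node number of its largest clique, or 0. All 47 members were found in RefSeq, and background genes were matched by symbol or unique synonym (9611 of 16197 names). The log2 value uses a pseudocount of 1. A gene at 0 at 1 age gets no fold, but enters the medians over genes listed at either age. Members with a log2 value beyond 1 in size, a clique of 30 or more nodes or a listing in old only are given in full. The members and lists were chosen with earlier results of these data known. Measures were checked on a made network. Python 3.11.15, pandas 2.3.3, NumPy 2.4.6, SciPy 1.17.1 (Wilson intervals) and matplotlib 3.10.9 were used.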

Additional observations from a re-analysis of the deposited data

How the results depend on the processing

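The members listed in each network were 29 in young and 26 in old, and the values were smaller in old for 26 and larger for 6, with a median log2 value of -1.05. The median stayed below 0 in each alternative that gave one: -0.51 with a pseudocount of 5, -0.25 after dividing sizes by the mean clique, -1.08 with cliques of at least 3 nodes and also with 1 member per pair of cliques, -0.25 by the bin of the start, -0.67 by gene span, -0.58 for members listed at both ages and -1.24 for those with a young clique of 30 or more nodes, an alternative chosen after seeing the data. By percentile rank it was -1.02 percentile points. Over all genes the medians were also below 0, at -0.93 for genes listed at either age and -0.63 for those listed at both. A median below 0 therefore does not set the members apart. Keeping genes by a large young clique in itself favours a smaller old value. All-gene medians under the other settings are not given here. Counts moved by over 1.5 times in some settings: 15 members were larger in old relative to the mean clique, 17 were lower and 16 higher by rank, 2 were larger among members listed at both ages, and 16 were smaller and 1 larger among those with a young clique of 30 or more nodes. By the bin of the start, which only 37 members have, 19 were present in young and 15 smaller in old. Of single members beyond 2-fold, only Ogg1 changed sign, to -0.63 by gene span. No paired analysis was possible because the networks carry no replicate number and no result comes from a test; for the same reason leaving out a replicate was not run. Depth is unknown and limits both networks: a gene listed in no clique is not shown to lack H3K27ac or contacts.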

Other observations

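Repair genes in gene-rich neighbourhoods tended to be in larger cliques. Spearman's rho between the number of coding genes within 250 kb and clique size was 0.39 in young and 0.49 in old over the 47 members, and 0.18 and 0.17 over all 21631 coding genes; these are descriptions across genes, which share cliques and are not independent. The median number of coding neighbours was 10 for members listed at either age and 6 for members listed at neither. Over all coding genes it was 9 and 7, in the same direction.

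A few of the genes listed with members, picked here after their names were seen and forming no tested group, have known roles in the liver. Neil2 shared its cliques at both ages with Fdft1, which starts the sterol branch of cholesterol synthesis, and with the transcription factor gene Gata4, and Ung shared its with the acetyl-CoA carboxylase gene Acacb. Ddb2 was listed with Nr1h3, the oxysterol receptor gene, in cliques of 77 and 35 nodes, and Ercc3 with Proc, the gene of the anticoagulant protein C, in cliques of 50 and 34.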
